A study of Mus musculus with 22 samples.

Results

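The hypoxia response genes described here are 10 genes of the cellular answer to low oxygen that lie outside glycolysis: Hif1a, P4ha1, P4ha2, Ndrg1, Ankrd37, Egln1, Egln3, Bnip3, Vegfa and Kdm3a. They were taken by name from a table of 52327 gene symbols, in which all 10 were found. Of the 10, 9 passed the filter on low counts with 14064 genes in all, and Egln3 did not. Each of 22 libraries held the bulk RNA of insulin-producing β-cells, isolated by fluorescence-activated sorting from 1 male mouse of mixed background at an age of 3 months. The alleles GluDTR+, SstDTR htz and PpyDTR htz were present in every group, controls included, and make α-, δ- and γ-cells of the islet sensitive to diphtheria toxin (DT). The 4 groups were refed DT mice (n = 6), refed control mice (n = 5), fasted DT mice (n = 6) and fasted control mice (n = 5). Fasted mice went without food for 8 h, refed mice had 2 h of refeeding after the same fast, and all were taken 1 month after ablation. The labels do not say what control mice were given in place of the toxin.

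Cells sense oxygen through hypoxia-inducible factor (HIF), a pair of an oxygen-regulated α subunit and a stable partner, ARNT. While oxygen is present, prolyl hydroxylases of the EGLN family modify the α subunit, the VHL ubiquitin ligase binds it and the proteasome destroys it, so that HIF activity is set largely at the protein and not at the mRNA. When oxygen falls the pair binds DNA at sites with the core ACGTG or GCGTG and raises genes for angiogenesis, mitophagy, histone demethylation, collagen modification and glucose use. In β-cells, which need oxidative metabolism to couple glucose to insulin release, strong HIF activity is known to impair glucose sensing.

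Among the sequences behind these genes, the promoters of the 4 members below are shown because they hold the core letters and belong to genes with different feeding effects. P4ha2 and P4ha1 were called higher and Ankrd37 lower after refeeding in both DT and control mice, and Bnip3 was called lower in control mice only by a small margin and not called in DT mice. Each window runs from 250 bases before to 50 bases after the start site in RefSeq on GRCm38.p6, written 5′ to 3′ along the gene, and capitals mark every ACGTG or GCGTG on either strand.
P4ha2 (chr11:54100674-54100973, plus strand): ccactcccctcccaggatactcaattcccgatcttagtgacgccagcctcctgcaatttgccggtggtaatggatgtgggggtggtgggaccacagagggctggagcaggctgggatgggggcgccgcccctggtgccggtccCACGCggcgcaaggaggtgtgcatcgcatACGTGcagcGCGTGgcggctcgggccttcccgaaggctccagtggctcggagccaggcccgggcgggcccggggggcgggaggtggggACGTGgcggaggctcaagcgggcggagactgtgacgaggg
P4ha1 (chr10:59323046-59323345, plus strand): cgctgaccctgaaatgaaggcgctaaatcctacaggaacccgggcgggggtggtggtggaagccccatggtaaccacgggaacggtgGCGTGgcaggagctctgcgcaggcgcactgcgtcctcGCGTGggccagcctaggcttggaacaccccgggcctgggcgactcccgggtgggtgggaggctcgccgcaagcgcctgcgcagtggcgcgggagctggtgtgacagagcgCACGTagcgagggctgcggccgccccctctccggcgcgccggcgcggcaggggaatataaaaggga
Ankrd37 (chr8:45999801-46000100, minus strand): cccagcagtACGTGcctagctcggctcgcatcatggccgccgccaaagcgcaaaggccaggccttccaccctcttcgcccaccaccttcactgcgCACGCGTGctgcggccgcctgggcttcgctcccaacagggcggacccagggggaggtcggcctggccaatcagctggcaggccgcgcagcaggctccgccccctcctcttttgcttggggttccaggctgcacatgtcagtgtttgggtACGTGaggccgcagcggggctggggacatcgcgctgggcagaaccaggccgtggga
Bnip3 (chr7:138909457-138909756, minus strand): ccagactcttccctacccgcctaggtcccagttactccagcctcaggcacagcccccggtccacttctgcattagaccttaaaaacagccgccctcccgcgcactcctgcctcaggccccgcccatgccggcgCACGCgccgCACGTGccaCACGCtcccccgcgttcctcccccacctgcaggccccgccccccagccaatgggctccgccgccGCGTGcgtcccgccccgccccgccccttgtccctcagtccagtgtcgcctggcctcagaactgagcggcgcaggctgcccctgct

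Windows of this length were at hand for 9 members (12 windows, since Kdm3a had 3 and Vegfa 2), and Ndrg1 is named only. ACGTG was found in 8 of the 12 windows and either core in 9 of the 12, while over all 32851 promoter windows 19.6% held ACGTG and 43.8% held either core. By gene, 8 of the 9 members had ACGTG in some window, and all 9 had ACGTG or GCGTG. Vegfa had 0 matches in the window at the 5′ end of the gene and 2 in its other window. The Hif1a window, with 3 ACGTG, begins at chr12:73907617, inside the gene, whose 5′ end in RefSeq is at 73901324. The Ankrd37 window, up to 46000100, also lies inside its gene, whose 5′ end in RefSeq is at 46000414. The counts by gene take any window of a gene, while the shares over all promoters are per window. The windows printed above were 69.0% to 71.7% G or C, against a median of 52.7% over all windows, and the part of base composition in the shares was not tested. P4ha2 held 4 matches, P4ha1 3, Ankrd37 4 and Bnip3 5. In Bnip3 the ACGTG matches of the 2 strands overlap at positions -108 and -107 and spell CACGTG, which is also the E-box that basic helix-loop-helix factors bind. In Ankrd37 the GCGTG matches of both strands overlap at positions -155 and -152. Kdm3a held 1 GCGTG and no ACGTG in its 3 windows. A match is a description of letters and not a site of binding.

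Levels are CPM, that is read counts over the TMM-scaled total of the library, and tests are edgeR quasi-likelihood F tests with all 22 libraries in 1 fit, called at a Benjamini-Hochberg adjusted p under 0.05 over the 14064 genes. Total counts ran from 16584117 to 24988880 per library. Insulin genes took 40.3% to 51.1% of the counts in 21 libraries and 69.4% in refed DT mouse 13, whose mean correlation with its own group was 0.881 in log2 CPM, the lowest of all. Refed DT mouse 20 had the next lowest, 0.911, and the highest sums of mitochondrial genes (1.59% of counts) and of immune-cell markers (405 CPM). The TMM factor was 0.566 in mouse 13 and 0.920 to 1.10 in the other libraries. A low factor shrinks the scaled total and so raises every CPM of that library. The endothelial marker sum lay between 3.63 and 10.9 CPM and the stromal sum between 0 and 17.6 CPM in all libraries. Acinar markers ran from 76.6 to 37560.2 CPM. In bulk samples, fewer cells of a type and less RNA per cell cannot be told apart. Separate mice stand behind all p-values.

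Per kilobase of exon, Vegfa was the highest member, with a median of 52.3 CPM per kb over the 22 libraries (range 19.8 to 72.1). It encodes the main angiogenic growth factor that islets secrete toward their capillaries. Below it came Bnip3 (median 13.3 CPM per kb), P4ha1 (12.5), Ndrg1 (9.95) and Hif1a (9.88), whose ranges over the libraries overlapped. P4ha2 (3.32 CPM per kb), Ankrd37 (3.20), Egln1 (3.13) and Kdm3a (2.57) had lower medians, also with overlapping ranges. Their ranges met those of the members above, since P4ha2 reached 7.01 CPM per kb and Hif1a went down to 3.27. Egln3 was last at 0.0382 CPM per kb, and its highest library, at 0.217, was below the lowest library of every other member.

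**Figure D1:**
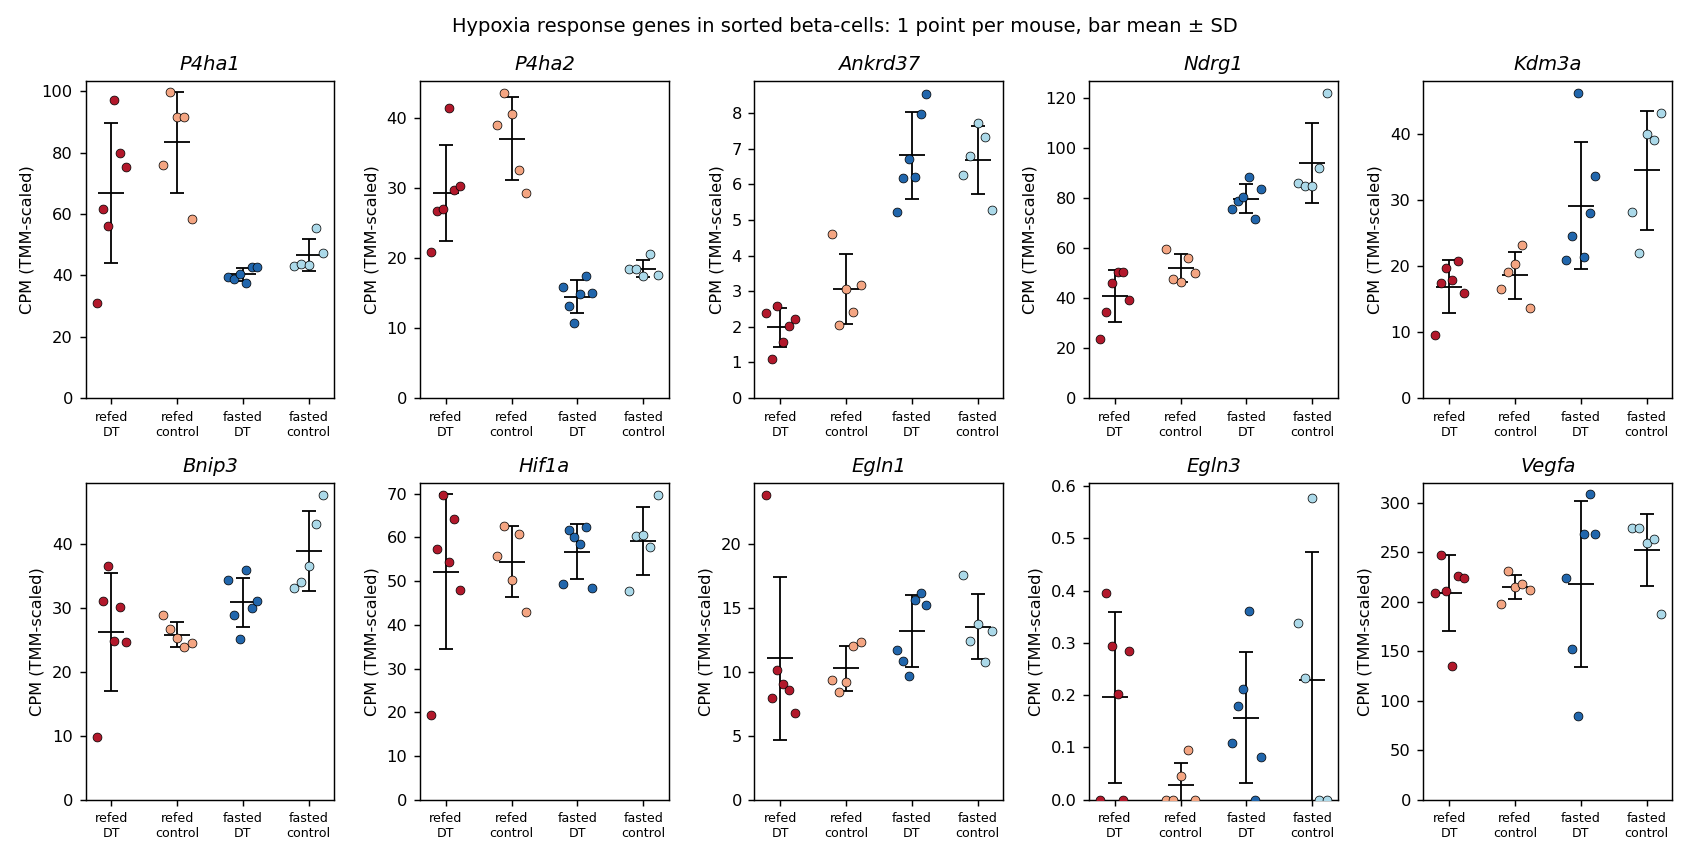
CPM of the 10 members in each mouse, by group (refed DT, refed control, fasted DT, fasted control); points are mice and bars the mean ± SD, with each axis starting at 0. P4ha1 and P4ha2 are higher, and Ankrd37, Ndrg1 and Kdm3a lower, in refed than in fasted mice, and refed DT mouse 13 is the lowest point for Hif1a, Bnip3, Kdm3a, Ndrg1 and P4ha1.

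Refeeding split the hypoxia response genes. In DT mice 2 of the 9 tested members were higher after refeeding and 3 were lower, and in control mice 2 were higher and 4 lower. P4ha1 and P4ha2, subunits of the collagen prolyl hydroxylase, rose, while Ankrd37, Ndrg1 and Kdm3a fell in both kinds of mice and Bnip3 fell in control mice. Hif1a, Egln1 and Vegfa did not pass the test in either. Many genes differed between refed and fasted mice: in DT mice 24.4% of all tested genes were called, 10.8% higher and 13.5% lower, and in control mice 23.3%, with 10.9% higher and 12.3% lower. The members' counts, 5 and 6 of 9, stand above these shares, but the list was chosen with such results known and was not tested. The median log2 fold change of the 9 members was -0.23 in DT mice and -0.40 in control mice, beside -0.057 and -0.043 over all genes. All fasted mice carry numbers 1 to 11 and all refed mice 12 to 22, and the labels give no batch. Any effect of the order of collection, or of the 2 h between the groups, cannot be told apart from feeding.

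P4ha2 (chr11:54100095-54131665 on GRCm38, as are all positions here) encodes a catalytic subunit of the enzyme that hydroxylates proline in collagen chains within the endoplasmic reticulum. Its level was 20.8 to 41.5 CPM in refed DT mice (mean 29.4, n = 6), against 10.7 to 17.4 CPM in fasted DT mice (mean 14.5, n = 6). In control mice it was 39.1, 43.7, 40.7, 32.6 and 29.4 CPM after refeeding, against 18.5, 18.4, 17.5, 20.6 and 17.7 CPM fasted. Refed and fasted mice did not overlap in either comparison, as held for 10.1% of all tested genes in DT mice and 21.5% in control mice. The log2 fold change was 1.02 ± 0.14 (SE) in DT mice (edgeR adjusted p = 3.73e-05) and 1.00 ± 0.16 in control mice (edgeR adjusted p = 0.000104).

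P4ha1 (chr10:59323296-59373304) encodes the other widely expressed catalytic subunit of the same enzyme. It lay between 30.9 and 97.0 CPM in refed DT mice (median 68.4), against 37.6 to 42.8 CPM in fasted DT mice (median 39.9). Control mice had 76.0, 99.7, 91.5, 91.6 and 58.3 CPM refed, against 43.0, 43.6, 43.3, 55.3 and 47.4 CPM fasted. Only mouse 13, at 30.9 CPM, kept the DT groups from standing apart, and the control groups did not overlap. P4ha1 rose by 0.73 ± 0.18 on the log2 scale in DT mice (edgeR adjusted p = 0.00545) and by 0.84 ± 0.20 in control mice (edgeR adjusted p = 0.00380). Without mouse 13 the value in DT mice was 0.95.

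Their partner P4hb, the β subunit that is also protein disulfide isomerase, rose too in the average of both feeding effects (0.41 ± 0.11, edgeR adjusted p = 0.00446). The third catalytic subunit P4ha3 was under the filter on low counts. Plod1, a lysyl hydroxylase of collagen, rose by 0.60 ± 0.13 (edgeR adjusted p = 0.000783). Plod2, another lysyl hydroxylase, went the other way and was called lower in the feeding average, a call lost in a run given below. Its median was 0 CPM in refed control mice, against 0.757 CPM in fasted control mice. In DT mice its medians were 0.0496 CPM refed and 0.160 CPM fasted, with overlapping ranges. Summed stromal markers, which include collagen genes, had medians of 0.243 CPM in refed DT mice and 0.454 in refed control mice, against 1.85 in fasted DT mice and 0.167 in fasted control mice. The highest sums were 11.6 CPM in a refed DT mouse, 6.21 in a refed control mouse, 17.6 in a fasted DT mouse and 1.51 in a fasted control mouse. The part of stromal cells in these values was not tested.

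Ankrd37 (chr8:45996902-46005707) encodes a small ankyrin repeat protein and is a direct HIF target. It was at 1.09 to 2.59 CPM in refed DT mice (median 2.13), against 5.24 to 8.53 CPM in fasted DT mice (median 6.47). In control mice it had 4.61, 2.04, 3.06, 2.40 and 3.17 CPM after refeeding, against 6.27, 6.81, 7.72, 7.34 and 5.29 CPM fasted. No refed mouse reached the lowest fasted mouse of its kind. Ankrd37 fell by 1.79 on the log2 scale (SE 0.22, edgeR adjusted p = 8.35e-06) in DT mice and by 1.13 (SE 0.24, edgeR adjusted p = 0.00143) in control mice, the lowest fold changes of any member in each. Of its annotated exon bases 22.7% overlap Lrp2bp and 3.70% Ufsp2 on the opposite strand, and the strand setting of the counting is not given in the sources used here. Lrp2bp, with a median of 0.497 CPM, had a feeding average of -0.95 ± 0.39, of the same sign as Ankrd37, and was not called (edgeR adjusted p = 0.0578). Ufsp2 rose with feeding (0.55 ± 0.10, edgeR adjusted p = 0.000132). The part of their reads in the Ankrd37 value was not tested, and both were named for this overlap after their values were seen.

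Ndrg1 (chr15:66929318-66969640) encodes a stress-induced protein of the NDRG family that HIF raises in many cell types. Refed DT mice had 23.8 to 50.6 CPM (median 42.5), against 71.6 to 88.3 CPM in fasted DT mice (median 79.6). The refed control values were 59.6, 47.8, 46.4, 56.0 and 50.1 CPM, against fasted control values of 86.2, 84.9, 84.8, 92.0 and 122 CPM. All refed mice were below all fasted mice of their kind. The log2 fold change was -0.97 ± 0.14 in DT mice (edgeR adjusted p = 5.82e-05) and -0.85 ± 0.16 in control mice (edgeR adjusted p = 0.000465). Its relative Ndrg4 fell as well in the feeding average (-1.04 ± 0.19, edgeR adjusted p = 0.000166), and Ndrg3 was at -0.08 ± 0.07 and not called.

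Kdm3a (chr6:71588972-71632990) encodes a histone demethylase that removes methyl groups from histone H3 lysine 9. It ran from 9.51 to 20.9 CPM in refed DT mice (median 17.7), against 20.96 to 46.3 CPM in fasted DT mice (median 26.3). Among controls, refed mice had 16.5, 19.1, 20.4, 23.2 and 13.7 CPM (mean 18.6), against a mean of 34.6 CPM in fasted mice (median 39.2, highest 43.3), whose read counts were 587, 378, 902, 828 and 1039. The DT groups stood apart by the narrow gap between 20.86 and 20.96 CPM, and the control groups overlapped, since refed mouse 21 was above fasted mouse 2. Kdm3a fell by 0.78 on the log2 scale (SE 0.21, edgeR adjusted p = 0.0105) in DT mice and by 0.89 (SE 0.23, edgeR adjusted p = 0.00806) in control mice. Without refed DT mice 13 and 20 the value in DT mice was -0.54 and no longer called (edgeR adjusted p = 0.0677).

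Bnip3 (chr7:138890836-138909519) encodes a mitochondrial receptor for mitophagy. Its level was 9.78 to 36.7 CPM in refed DT mice (median 27.5), against 25.2 to 35.9 CPM in fasted DT mice (median 30.5), and these groups overlapped. Refed control mice had 28.9, 26.8, 25.3, 23.9 and 24.5 CPM, all below fasted control mice at 33.2, 34.0, 36.6, 43.2 and 47.7 CPM. The log2 fold change of -0.59 ± 0.21 in control mice passed by a small margin (edgeR adjusted p = 0.0491), and leaving out 1 library at a time gave edgeR adjusted p from 0.00219 (without refed DT mouse 13) to 0.127 (without fasted control mouse 5), with the call lost in 19 of the 22 cases. In DT mice the value was -0.23 ± 0.19 and not called (edgeR adjusted p = 0.414), and it turned to 0.07 without refed DT mice 13 and 20. In the average Bnip3 fell by 0.41 (SE 0.14, edgeR adjusted p = 0.0272), a call lost without fasted control mouse 4 or 5 (edgeR adjusted p = 0.0771 and 0.0586). In the interaction the difference between the feeding effects was 0.36 ± 0.29 (edgeR adjusted p = 0.883). Its relative Bnip3l, another mitophagy receptor, fell by 0.59 (SE 0.08, edgeR adjusted p = 6.43e-06) in the feeding average. An antisense transcript, Gm45507, overlaps 22.3% of the exon bases of Bnip3 and had no count in any library. Since the strand setting of the counting is not given, this does not show whether Bnip3 reads in the overlap were kept, and its part was not tested.

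**Figure D2:**
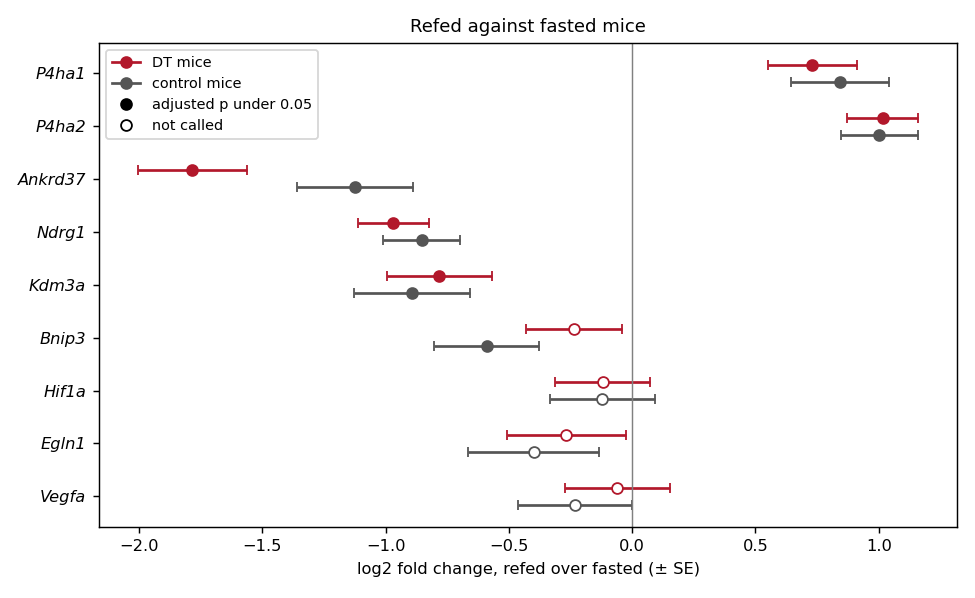
Log2 fold change, refed over fasted (± SE), of the 9 tested members in DT mice and in control mice; filled points have an adjusted p under 0.05. P4ha1 and P4ha2 lie right of 0 and Ankrd37, Ndrg1 and Kdm3a left of 0 in both kinds of mice, and the Bnip3 point is filled in control mice.

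The regulator Hif1a and the hydroxylase Egln1 were not called by edgeR with all libraries. Hif1a (chr12:73901375-73947530) encodes the α subunit itself. It had 19.3 to 69.7 CPM in refed DT mice (median 55.9), 42.9 to 62.7 in refed control mice (median 55.8), 48.5 to 62.4 in fasted DT mice (median 59.3) and 47.8 to 69.7 in fasted control mice (median 60.3). Its feeding effect was -0.12 ± 0.19 in DT mice and -0.12 ± 0.21 in control mice (edgeR adjusted p = 0.700 and 0.735), with 95% intervals from -0.52 to 0.28 and from -0.56 to 0.32. Without refed DT mouse 13, the lowest of all libraries, the value in DT mice was 0.12. The 3 tested genes with the nearest profile to Hif1a over the 22 libraries were Rp2, Kpna3 and Trmt10c, at a mean absolute difference of 0.301, 0.302 and 0.305 SD units, beside a median of 1.01 over all genes. They were picked as the smallest differences, so lying below the median follows from the choice and is no test.

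Egln1 (chr8:124908587-124949324) encodes the main HIF prolyl hydroxylase and is itself a HIF target. It was at 6.75 to 23.9 CPM in refed DT mice (median 8.82), against 9.69 to 16.2 in fasted DT mice (median 13.5), and at 8.45 to 12.4 in refed control mice (median 9.34), against 10.7 to 17.6 in fasted control mice (median 13.2). Mouse 13 alone held the value of 23.9 CPM, and the other refed DT mice reached at most 10.2 CPM. With all libraries Egln1 did not pass in DT mice (-0.27 ± 0.24, edgeR adjusted p = 0.459), in control mice (-0.40 ± 0.26, edgeR adjusted p = 0.305) or in the average (-0.33 ± 0.18, edgeR adjusted p = 0.149). Without mouse 13 it was called lower after refeeding in DT mice (-0.56, edgeR adjusted p = 0.0114) and in the average (-0.46, edgeR adjusted p = 0.00266), and limma voom with all libraries called it in the average too (-0.44, adjusted p = 0.0241).

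Egln3 (chr12:54178981-54203860), another HIF prolyl hydroxylase, was near the detection limit. Its read counts were 0, 8, 6, 5, 0 and 6 in refed DT mice, 0, 0, 1, 2 and 0 in refed control mice, 2, 3, 4, 8, 0 and 2 in fasted DT mice and 7, 4, 13, 0 and 0 in fasted control mice. All groups overlapped. A count of 0 allows up to 0.120 to 0.274 CPM by the limit of 3 counts, which covers counting error only. Egln3 was left out by the filter on low counts. In the fit without that filter it was not called in any comparison (edgeR adjusted p from 0.213 to 0.965), with the smallest unadjusted p for feeding in control mice (-2.71 ± 1.26) and for DT in refed mice (2.58 ± 1.23).

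Vegfa (chr17:46016993-46032369) was at 135 to 248 CPM in refed DT mice (median 217), against 85.0 to 309 CPM in fasted DT mice (median 246). In control mice it had 197, 231, 214, 217 and 212 CPM refed, against 275, 274, 259, 264 and 188 CPM fasted. The groups overlapped in DT mice over almost their whole range and in control mice through fasted mouse 5. The feeding effect was -0.06 ± 0.21 in DT mice (edgeR adjusted p = 0.868; 95% interval from -0.50 to 0.38) and -0.23 ± 0.23 in control mice (edgeR adjusted p = 0.520; 95% interval from -0.71 to 0.25). In DT mice that value sat at 0.00 with DESeq2 size factors and at 0.01 without the insulin genes, so its direction depends on the scaling. The nearest profiles to Vegfa over the 22 libraries were those of Cpe, Lysmd2 and Slc7a5, at 0.249, 0.252 and 0.264 SD units against a median of 1.04, again picked as the smallest differences and not tested. Pgf, a VEGF relative, fell by 1.10 (SE 0.21, edgeR adjusted p = 0.000236) in the feeding average, and of 5 VEGF receptor genes 1, Nrp1, passed the filter, at 0.70 ± 0.71 and not called.

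The split can also be seen without scaling, in ratios of read counts within 1 library. The ratio of P4ha2 to Ndrg1 reads was 0.588 to 0.877 in refed DT mice and 0.582 to 0.915 in refed control mice, against 0.133 to 0.244 in fasted DT mice and 0.145 to 0.224 in fasted control mice. P4ha1 reads were 2.82 to 5.41 times those of Kdm3a in refed DT mice and 3.94 to 5.21 times in refed control mice, against 0.871 to 1.88 times in fasted DT mice and 1.08 to 1.98 times in fasted control mice. Refed and fasted mice were apart in both ratios, mouse 13 included. These pairs were chosen after the values were seen, so the ratios are a description with no test. P4ha2 and P4ha1 kept closer to each other, at 0.373 to 0.675 P4ha2 reads for each P4ha1 read in refed DT mice and 0.356 to 0.515 in refed control mice, against 0.265 to 0.407 in fasted DT mice and 0.373 to 0.430 in fasted control mice.

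**Figure D3:**
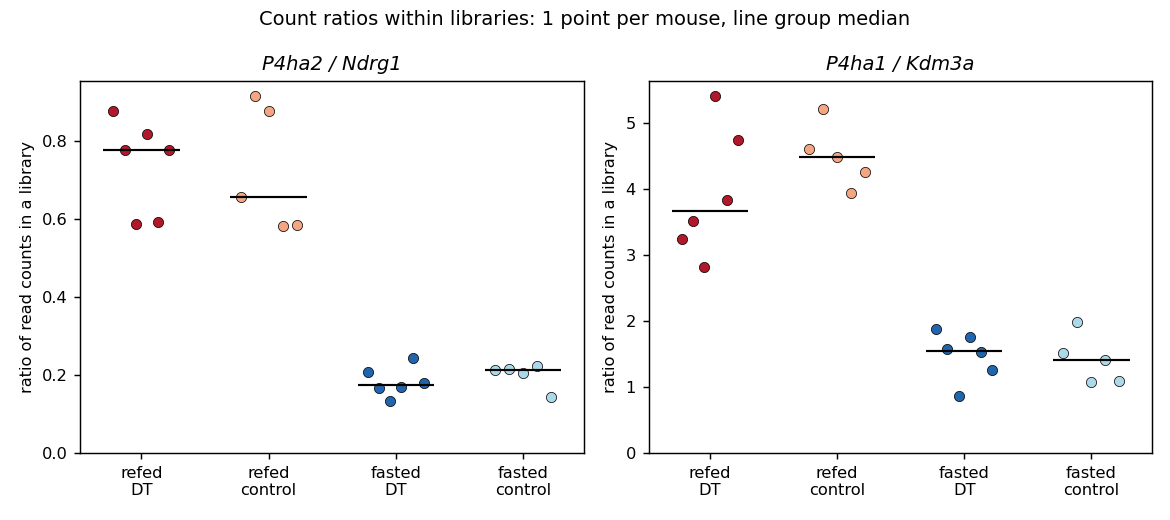
Ratio of read counts within each library, P4ha2 over Ndrg1 and P4ha1 over Kdm3a, by group (refed DT, refed control, fasted DT, fasted control); points are mice and lines group medians. All refed mice lie above all fasted mice, with P4ha2 over Ndrg1 at 0.582 or more in refed mice and at 0.244 or less in fasted mice.

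Feeding values of markers of other cells were looked at too, and none was called among the δ-cell, ductal, endothelial, immune and stromal markers in the feeding average. Of 13 acinar markers 12 were tested, all 12 had a feeding average above 0 with a median of 1.21, and none was called. Refed DT mice had an acinar sum of 76.6 to 37560.2 CPM and refed control mice one of 1341 to 21968.4, against 113 to 19985.2 in fasted DT mice and 131 to 13636.3 in fasted control mice. Both γ-cell markers were called higher in the feeding average, Pyy at 1.58 ± 0.43 and Ppy at 1.52 ± 0.53 (edgeR adjusted p = 0.00631 and 0.0269). Their summed level had a median of 36.8 CPM in refed DT mice (highest 86.7) and 97.1 CPM in refed control mice (highest 258), against 9.78 CPM in fasted DT mice (highest 26.6) and 19.9 CPM in fasted control mice (highest 121). Of 4 tested α-cell markers 2 had a feeding average above 0 and 2 below, from -0.84 to 2.32. Only 1 of them, Slc7a2, was called, and it was lower (-0.62 ± 0.12, edgeR adjusted p = 0.000222). The part of these markers' cells in the feeding values was not tested.

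Further HIF targets outside glycolysis, a list of 28 genes of which 20 were tested, held calls in both directions. In the average of both feeding effects, where 38.9% of all tested genes were called, 17.2% higher and 21.7% lower, 5 of the 20 rose and 11 fell. The members gave 2 higher and 4 lower of 9 in that average. Angptl4, an inhibitor of lipoprotein lipase, fell by 5.99 (SE 0.49, edgeR adjusted p = 1.07e-08), with 0 to 0.0991 CPM in refed DT mice and 0 to 0.232 in refed control mice, against 2.17 to 3.20 in fasted DT mice and 2.00 to 7.96 in fasted control mice. Rora, a nuclear receptor, fell by 1.00 (SE 0.09, edgeR adjusted p = 5.41e-08). Fam162a, a mitochondrial protein gene, rose by 0.86 ± 0.10 (edgeR adjusted p = 1.09e-06). Without refed DT mice 13 and 20 the counts were 5 higher and 9 lower (43.7% of all genes called), with Plod2 and Ddit4 no longer called.

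HIF targets of glucose uptake and glycolysis leaned the other way. Of 18 genes 16 were tested, with 8 higher, 1 lower and a median of 0.40 in the feeding average, against a median of -0.33 for the 9 members and -0.056 over all genes. Pgk1, phosphoglycerate kinase, rose by 0.90 ± 0.13, Aldoa by 0.46 ± 0.06 and Tpi1 by 0.45 ± 0.06 (edgeR adjusted p from 4.44e-06 to 1.22e-05).

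Among 14 HIF subunits and regulators, 12 were tested, and 4 were higher and 2 lower in the feeding average, beside 17.2% and 21.7% of all genes. The higher ones were Eloc (0.39 ± 0.06), Elob (0.37 ± 0.13), Rbx1 (0.20 ± 0.06) and Cul2 (0.35 ± 0.12), all parts of the VHL ubiquitin ligase (edgeR adjusted p from 1.77e-05 to 0.0348), and their shared place in that ligase was noted after the values were seen. Vhl, its substrate receptor, was at -0.17 ± 0.18 and not called. Arnt2, a HIF partner subunit, fell by 0.67 (SE 0.23, edgeR adjusted p = 0.0228), and Egln2, a further prolyl hydroxylase, by 0.22 (SE 0.08, edgeR adjusted p = 0.0289). Without refed DT mice 13 and 20 both lost their calls (edgeR adjusted p = 0.0828 and 0.156), and the 4 ligase genes remained called.

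**Figure D4:**
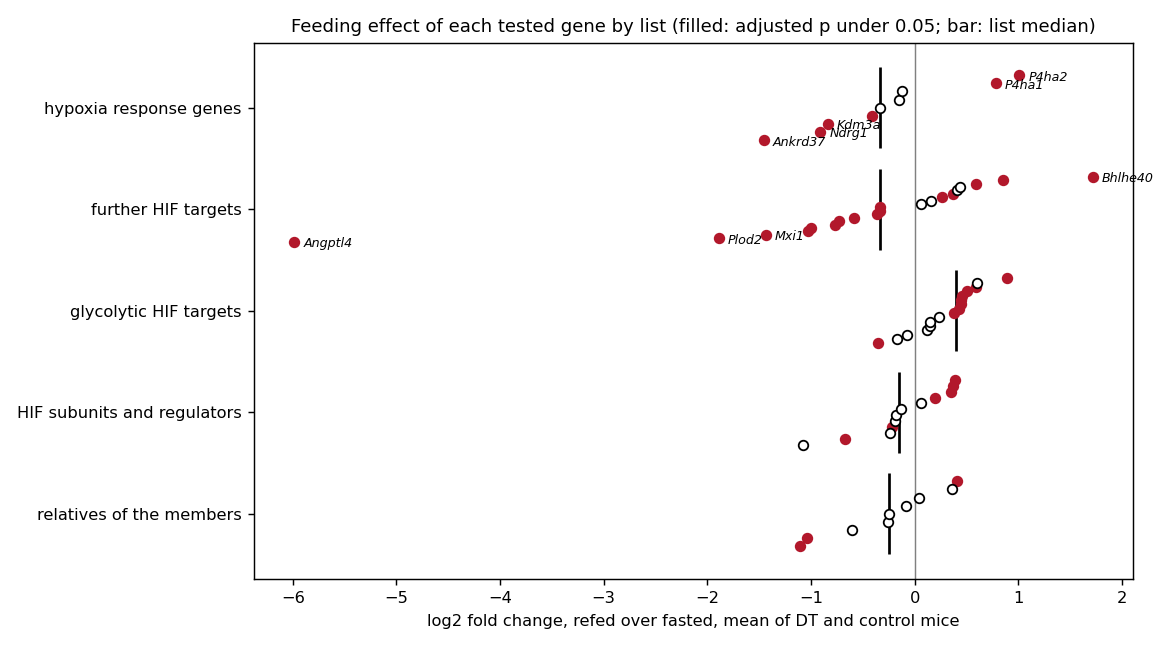
Average feeding effect (log2, refed over fasted, mean of DT and control mice) of every tested gene in 5 lists; filled points have an adjusted p under 0.05 and bars are list medians. The hypoxia response genes have a median of -0.33 and spread to both sides of 0, further HIF targets have a median of -0.34, and glycolytic HIF targets one of 0.40.

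No hypoxia response gene passed the test for an effect of ablation. DT mice were set against control mice to ask what the loss of the neighbouring endocrine cells does to β-cells. In refed mice 0 of the 9 members were called, where 0.0356% of all genes were, and in fasted mice 0 of 9, where 0.0284% were. Averaged over feeding the count was again 0, beside 0.206% of all genes. At an unadjusted p under 0.05 there were 3 members in refed mice (10% of all genes), 1 in fasted mice (8.33%) and 2 in the average (11.9%). DESeq2 called 0 members in each, beside 0.576%, 0.292% and 1.19% of all genes, and limma voom 0 beside 0.00711%, 0.0284% and 0.178%. In the average 8 of the 9 values were below 0, while 52.4% of all tested genes were above 0. The members' median was -0.19 beside 0.012 over all genes. The list was chosen with earlier results on these same data known, which already had hypoxia genes lower in DT mice. This direction is therefore no separate support for an effect.

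P4ha2 and Ndrg1 had the smallest unadjusted p in the DT average. P4ha2 was at 20.8 to 41.5 CPM in refed DT mice, against 29.4 to 43.7 in refed control mice, and at 10.7 to 17.4 CPM in fasted DT mice, against 17.5 to 20.6 in fasted control mice. The refed groups overlapped, as they did for every member (0.988% of all tested genes had none), and the fasted groups did not. Its average DT effect was -0.34 ± 0.11 (95% interval from -0.56 to -0.12; edgeR adjusted p = 0.187), with -0.34 ± 0.15 in refed and -0.35 ± 0.15 in fasted mice. P4ha1 did not overlap in fasted mice either, at 37.6 to 42.8 CPM in DT and 43.0 to 55.3 CPM in control mice. Groups without overlap were found for 1.88% of all tested genes in that comparison. Ndrg1 averaged -0.29 ± 0.11 (95% interval from -0.51 to -0.08; edgeR adjusted p = 0.258).

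Ankrd37 had the lowest DT effect of any member in refed mice, -0.63 ± 0.23 (95% interval from -1.10 to -0.16; edgeR adjusted p = 0.331), and 0.03 ± 0.22 in fasted mice. Refed DT mice had 1.98 ± 0.559 CPM and refed control mice 3.06 ± 0.983 CPM (SD, n = 6 and 5), and the groups overlapped. The difference between these DT effects was -0.66 ± 0.32 (edgeR adjusted p = 0.698).

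For the other members the DT average lay between -0.26 ± 0.13 (P4ha1) and 0.03 ± 0.18 (Egln1). Hif1a was at -0.06 ± 0.14 (95% interval from -0.36 to 0.24) and turned to 0.05 without refed DT mice 13 and 20. Vegfa was at -0.12 ± 0.16 (95% interval from -0.45 to 0.20), Bnip3 at -0.16 ± 0.14 and Kdm3a at -0.19 ± 0.16. These intervals leave room for differences of either sign, so they do not show that the groups were alike. In fasted DT mice Vegfa spread more widely than elsewhere, with an SD of 84.1 CPM against 36.4 in fasted control mice, 38.5 in refed DT mice and 12.2 in refed control mice. Fasted DT mouse 8 had the lowest Vegfa (85.0 CPM) and P4ha2 (10.7 CPM) and the highest Kdm3a (46.3 CPM) of all 22 libraries.

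**Figure D5:**
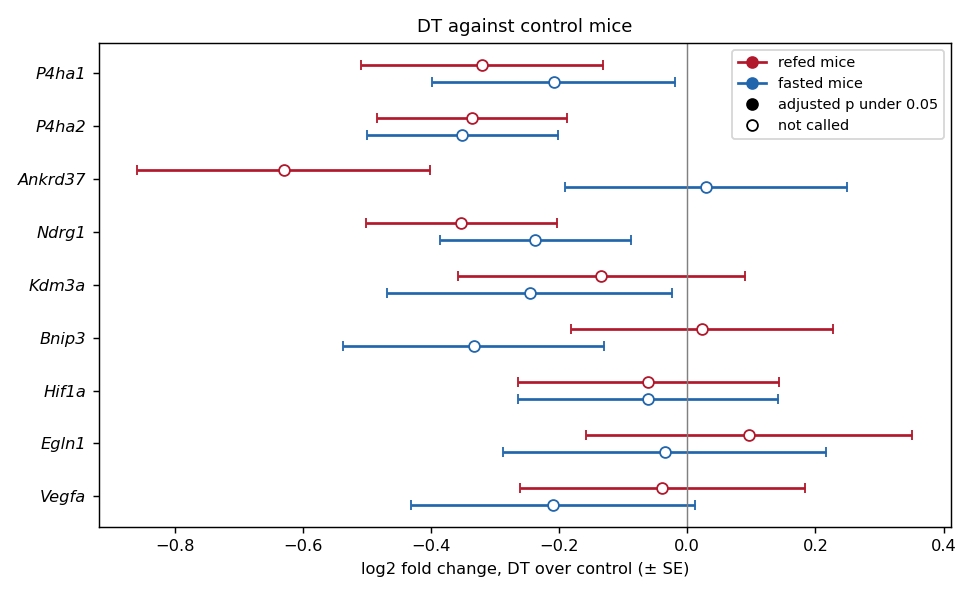
Log2 fold change, DT over control (± SE), of the 9 tested members in refed and in fasted mice; open points did not pass the test, which holds for all of them. Ankrd37 in refed mice, at -0.63, lies farthest from 0.

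Whether feeding acted differently in DT and control mice was tested by the interaction, which called 0 of 9 members (0.00711% of all genes). It called 0 members by DESeq2 (0.149% of all genes) and by limma voom (0%), and 0 had an unadjusted p under 0.05 (7.14% of all genes). Apart from Ankrd37 and Bnip3, the values ran from -0.12 ± 0.21 (Ndrg1) to 0.17 ± 0.31 (Vegfa). P4ha2 was at 0.01 ± 0.21 (95% interval from -0.42 to 0.45), and its feeding effect was 1.02 in DT mice and 1.00 in control mice. The comparisons share groups (refed DT mice enter 2 of the 4 between pairs of groups), so their values for 1 gene are not independent.

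In the other HIF lists 0 genes were called in the DT average. Arnt2 had the smallest unadjusted p among the regulators, at -0.87 ± 0.23 (edgeR adjusted p = 0.114), with 2.52 to 6.24 CPM in refed DT mice and 3.36 to 15.3 CPM in refed control mice, and 4.70 to 7.80 CPM in fasted DT mice and 7.72 to 16.2 CPM in fasted control mice. Jmjd6, an oxygen-dependent hydroxylase, was at 0.33 ± 0.10 (edgeR adjusted p = 0.175), Tfrc, the transferrin receptor, at -0.43 ± 0.17 (edgeR adjusted p = 0.299) and the enolase gene Eno2 at -0.37 ± 0.12 (edgeR adjusted p = 0.214). Without refed DT mice 13 and 20, Eno2 and Zfp395 were called lower in DT mice (edgeR adjusted p = 0.0385 and 0.0477), as 0.86% of all genes were in either direction. Summed α-cell markers had medians of 128 CPM in refed DT mice and 271 CPM in refed control mice, and of 148 CPM in fasted DT mice and 243 CPM in fasted control mice. This sum mixes directions: in the DT average the 4 tested α-cell markers ran from -6.70 to 1.22, with 2 above 0 and 1 called lower. Of 3 tested δ-cell markers 1 was above 0 and 1 was called lower (lowest value -6.96). Both γ-cell markers were below 0 and all 7 tested immune-cell markers above 0 (median 1.74), with 0 called. The part of these cells in the DT values was not tested.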

How the data were processed

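Counts of RNA-seq reads per gene symbol were deposited by the authors as 1 table of 22 libraries. Per the labels' protocols, RNA from sorted cells was amplified (SMARTer Ultra Low) before single-end sequencing. STAR 2.7.2b, HTSeq 0.9.1 and DESeq2 1.28.1 are named with build GRCm38.p6, per the submitters' processing notes; parameters, strand setting and annotation are not given in the sources used here. The table had 0 columns of no sample and 0 identical libraries.

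From these counts, 14064 genes passed filterByExpr, and R 4.3.3 with edgeR 4.0.16 gave TMM scaling, robust quasi-likelihood fits, F tests and standard errors from F. Intervals are 95%. The tests were checked on simulated data. DESeq2 1.42.0 and limma 3.58.1 served as alternatives. Exon lengths, overlaps and positions come from GENCODE M21 on GRCm38, promoters from RefSeq. Reads carry no molecular identifiers. The members and lists were chosen with earlier results of these data known. From each further list, up to 3 genes with the smallest p for feeding and 2 for DT could be named; Plod1, Plod2, Ddit4, Zfp395, Vhl, Bnip3l, Elob, Egln2, Ndrg3, the α- and γ-cell markers and genes overlapping members were named after their values were seen.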

Additional observations from a re-analysis of the deposited data

Results flagged for a closer look

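In 40 sets of 1 member in 1 group, 4 held a mouse far from the rest, by the gap to its neighbour over the range of the group; chance gives about 1 in 20. Egln1 in refed DT mouse 13 was at 23.9 CPM, with the next mouse at 10.2 CPM. Vegfa in refed DT mouse 16 was at 135 CPM, with the next at 209 CPM. Ndrg1 in fasted control mouse 5 was at 122 CPM, with the next at 92.0 CPM, and in the same mouse Vegfa was at 188 CPM, with the next at 259 CPM. Mouse 13 also had the insulin share of 69.4% and a TMM factor of 0.566, which raises its CPM values. The part of either in its Egln1 value was not tested.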

How the results depend on the processing

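No paired analysis was possible because each mouse number occurs once. The count of called members kept its value within 1.5 times under each alternative run: DESeq2 size factors, TMM without Ins1 and Ins2, no filter on low counts, DESeq2, limma voom, fits of the groups compared alone, each library left out, and, chosen after seeing the data, refed DT mice 13 and 20 left out. P4ha1, P4ha2, Ankrd37 and Ndrg1 stayed called in the feeding effect of DT mice, of control mice and of the average under all of these, and Kdm3a in all but the feeding effect of DT mice without mice 13 and 20. Bnip3 in control mice lost its call in 21 of 29 alternatives and in the average in 3 of 28. Over members and comparisons, 1703 of 1800 values kept direction and side of the threshold, 25 lost a call, 5 gained one and 67 changed sign, none of which had been called. Where leaving out 1 library turned a sign, values ran as follows. In the DT effect in fasted mice the ranges were Ankrd37 -0.045 to 0.086, Egln1 -0.12 to 0.076 and Hif1a -0.13 to 0.0033. In the DT effect in refed mice the ranges were Bnip3 -0.096 to 0.21, Egln1 -0.26 to 0.21, Hif1a -0.16 to 0.12, Kdm3a -0.22 to 0.00058 and Vegfa -0.093 to 0.059. In the feeding effect in DT mice the ranges were Bnip3 -0.35 to 0.0042, Hif1a -0.22 to 0.12 and Vegfa -0.21 to 0.065. In the interaction the ranges were Egln1 -0.20 to 0.24, Hif1a -0.099 to 0.21, Ndrg1 -0.23 to 0.037, P4ha1 -0.24 to 0.074 and P4ha2 -0.10 to 0.13. In the DT average the ranges were Egln1 -0.16 to 0.086 and Hif1a -0.11 to 0.020. In the feeding average the ranges were Hif1a -0.17 to 0.016. Signs also turned in these cases. With limma voom, Bnip3 -0.024 and Egln1 -0.086 in the DT effect in refed mice, Vegfa 0.027 in the feeding effect in DT mice, Egln1 -0.062 and Hif1a -0.053 in the interaction, Egln1 -0.055 in the DT average. Without refed DT mice 13 and 20, Egln1 -0.18, Hif1a 0.19 and Kdm3a 0.051 in the DT effect in refed mice, Bnip3 0.065 and Hif1a 0.19 in the feeding effect in DT mice, Egln1 -0.12, Ndrg1 0.079 and P4ha1 0.070 in the interaction, Egln1 -0.12 and Hif1a 0.053 in the DT average, Hif1a 0.051 in the feeding average. With DESeq2 size factors in edgeR, Vegfa 0.00093 in the feeding effect in DT mice. With TMM without Ins1 and Ins2, Vegfa 0.014 in the feeding effect in DT mice. With no filter on low counts, Vegfa 0.0094 in the feeding effect in DT mice. With DESeq2, Vegfa 0.00089 in the feeding effect in DT mice. The cause was not tested. Depth limits Egln3 most.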
